A study of Mus musculus with 6 samples.

Results

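The midbrain and hindbrain patterning factors are 9 transcription factor genes that mark the midbrain, the isthmus and the hindbrain of the embryo. They are the engrailed homeobox genes En1 and En2, the boundary homeobox gene Gbx2, the paired box genes Pax2, Pax5 and Pax8, the LIM homeobox genes Lmx1a and Lmx1b, and the rhombic lip gene Atoh1. They were chosen by name as a reading of how much midbrain and hindbrain each brain sample held. Each gene matched 1 RefSeq transcript ID, so the set was 9 of the 23485 IDs counted. The samples were whole brains of wild-type C57BL/6 mice at E15.5 (E, embryonic day). The 3 female and 3 male samples, called F1 to F3 and M1 to M3 here, had no treatment and differed in sex, which was read from testicular cords in the gonad. RNA of several embryos was pooled for each sample, which makes a value an average over embryos. Brain regions were not separated.

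The isthmus is the constriction between midbrain and hindbrain, and it acts as a signalling centre that patterns both sides through FGF8 and WNT1. Otx2 in front and Gbx2 behind place this boundary, and the engrailed and Pax2/5/8 genes keep the territory around it in being. Later in development the same genes are used again in single neuron types, among them dopamine neurons of the midbrain (En1, En2, Lmx1a, Lmx1b), serotonin neurons of the hindbrain (Lmx1b), GABA neurons of the hindbrain and cerebellum (Pax2) and granule cell precursors of the cerebellum (Atoh1). Several also have uses outside these regions, such as Gbx2 in the thalamus, Pax2 and Pax8 in the inner ear and kidney, Lmx1a in the roof plate, and En1 in the dermis.

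The members fall into families whose coding sequences are alike, and this bears on whether a read could be assigned to the right gene. The aligned stretches of 90 coding bases below are shown for that reason. They were read from NCBIM37 (mm9), the build of the files, with GENCODE gene models. Capitals mark the bases that differ within a family. The engrailed stretch overlaps the homeobox and lies in exon 2 of both genes. It is at chr1:122503596-122503685 on the plus strand for En1 and chr5:28496805-28496894 on the plus strand for En2. In it, 81 of 90 bases were identical.
En1: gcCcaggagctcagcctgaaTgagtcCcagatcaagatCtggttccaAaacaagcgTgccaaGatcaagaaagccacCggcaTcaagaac
En2: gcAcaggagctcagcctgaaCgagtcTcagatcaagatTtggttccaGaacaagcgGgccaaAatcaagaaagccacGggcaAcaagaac
The stretch within the paired box crosses 1 intron in each gene, and its outer ends lie at chr19:44835499-44836232 (plus strand) for Pax2, chr4:44704850-44710428 (minus strand) for Pax5 and chr2:24298603-24300120 (minus strand) for Pax8. All 3 genes shared 72 of 90 bases. Pax8 was 91.1% and Pax5 85.6% identical to Pax2.
Pax2: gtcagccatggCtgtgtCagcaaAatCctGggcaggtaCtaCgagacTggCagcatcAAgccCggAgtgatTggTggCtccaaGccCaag
Pax5: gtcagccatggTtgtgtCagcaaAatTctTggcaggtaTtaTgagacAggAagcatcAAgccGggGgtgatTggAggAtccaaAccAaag
Pax8: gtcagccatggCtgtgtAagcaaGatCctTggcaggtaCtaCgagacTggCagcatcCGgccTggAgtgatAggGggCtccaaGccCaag
The stretch of the LIM factors overlaps the homeobox and also crosses 1 intron, between exons 5 and 6. It is at chr1:169762969-169771066 (plus strand) for Lmx1a and chr2:33422225-33422461 (minus strand) for Lmx1b. Here 78 of 90 bases (86.7%) were identical.
Lmx1a: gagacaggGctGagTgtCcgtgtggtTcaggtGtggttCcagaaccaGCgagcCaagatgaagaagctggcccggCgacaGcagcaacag
Lmx1b: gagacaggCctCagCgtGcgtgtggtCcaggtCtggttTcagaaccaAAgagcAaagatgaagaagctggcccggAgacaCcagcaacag
No pair of member transcripts shared a run of 100 bases. The longest run was 60 bases, shared by Pax5 and Lmx1b, and the next was 27 bases, between Pax2 and Pax8. The reads were longer than that according to the study's methods. An untrimmed read therefore holds a base that tells any pair of these transcripts apart. How reads that aligned to several places were treated is not given in the sources used here.

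On NCBIM37, 3 of the genes are on chromosome 1: En1 (chr1:122498995-122505873, plus strand), Gbx2 (chr1:91824537-91829865, minus strand) and Lmx1a (chr1:169619370-169778872, plus strand). Pax8 (chr2:24276071-24331119, minus strand) and Lmx1b (chr2:33416485-33496031, minus strand) are on chromosome 2. The others are En2 (chr5:28492236-28500152, plus strand), Pax5 (chr4:44544017-44724318, minus strand), Atoh1 (chr6:64679140-64681227, plus strand) and Pax2 (chr19:44830539-44912758, plus strand). Atoh1 has a single exon, and En1, En2 and Gbx2 have 2 exons each. None of the members is on the X chromosome. The Gbx2 exons share 1152 bases with D130058E05Rik and the Pax8 exons share 87 bases with Gm13415, both on the opposite strand. The libraries were stranded, but the strand setting of the counting is not given, so reads of these partners could be part of the Gbx2 and Pax8 counts.

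Library totals ranged from 4908565 to 10294443 counts, and a count of 0 allows up to 3 counts, or 0.300 to 0.599 CPM (read counts scaled by the library total, adjusted here with TMM factors), which covers counting error only. IDs without a count numbered 4120 to 5183 in 4 samples and 6743 and 6280 in M1 and M2. Xist and the Y-linked Ddx3y and Kdm5d matched the sex label of every sample. The listed ID of Y-linked Eif2s3y had 0 counts in every female and 2, 13 and 8 counts in M1, M2 and M3, which is too few to check a label by itself. Of the brain markers, the neuronal tubulin Tubb3 was at 1229 to 1974 CPM, the progenitor gene Nes at 475 to 576 CPM, Sox2 at 73.1 to 122 CPM and the cortical neuron gene Neurod6 at 136 to 220 CPM. The single ID listed for Dcx was low (2.76 to 5.20 CPM). Head mesenchyme, dermis and skull genes were also abundant, and their 21 IDs summed to 11080 to 19230 CPM, mostly from the collagens Col1a1 and Col1a2. En1 and Lmx1b are known in such tissue too, and the share of their counts that came from it was not tested.

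All 9 members were counted in every sample and all 9 passed the filter of 10 counts in at least 1 sample. Their counts ran from 14 (Pax5 in F2) to 199 (En2 in M1), and the median member stood at the 39.5 percentile of tested IDs by mean CPM. Per kilobase of transcript, which allows genes to be compared, the mean level over the 6 samples was highest for En1 (3.55 CPM per kb, range 2.40 to 4.58) and Lmx1a (3.54, range 2.33 to 4.28), followed by En2 (3.41, range 2.37 to 4.13) and Pax8 (2.85, range 1.91 to 3.50). Atoh1 (2.13, range 1.10 to 3.73) and Gbx2 (1.96, range 1.53 to 3.07) were in the middle. Pax2 (1.43, range 0.641 to 2.51), Lmx1b (1.38, range 1.18 to 1.56) and Pax5 (1.36, range 0.944 to 1.72) were the lowest. Every pair of neighbours in this order overlapped over the samples, so the order is firm only between its ends. Each Lmx1b and each Pax5 value was below all values of En1, Lmx1a, En2 and Pax8. The lengths are those of the longest annotated transcript, and a shorter form in these brains would raise the level per kb.

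**Figure D1:**
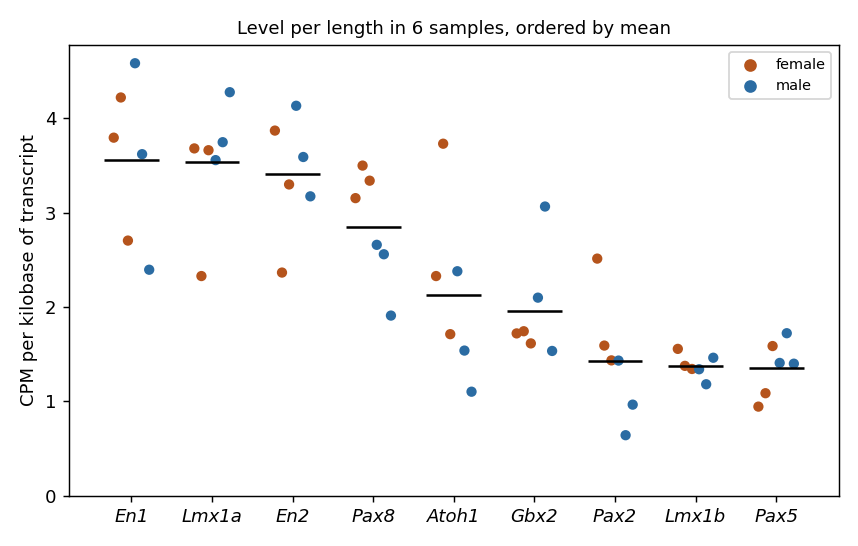
Level of each patterning factor in CPM per kilobase of transcript (y axis) in the 6 samples, ordered by the mean (black line), with female samples in orange and male samples in blue. En1, Lmx1a and En2 have means of 3.41 to 3.55, and Pax2, Lmx1b and Pax5 of 1.36 to 1.43.

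No member was called different between the sexes. In edgeR's quasi-likelihood test over all IDs, 0 of the 9 members passed an adjusted p of 0.05, against 0.0299% of the 13374 IDs tested (4 IDs). DESeq2 called 0 members and 37 of all IDs. With 1 RUVr factor, which is nearer to the study's own method, DESeq2 called 0 members and 240 of all IDs. At an unadjusted p under 0.05 there was 1 member, Pax2 (11.1% of members), against 11.5% of all tested IDs. The CPM of 2 members, Pax2 and Pax8 (22.2%), did not overlap between the sexes, against 17.1% of all tested IDs. These shares are near the background or rest on 1 or 2 genes, so they are no result about the members. The log2 fold change (male over female) was positive for 4 members and negative for 5, and its median was -0.004, beside -0.008 for all tested IDs. The tests compare pools. Each p-value sets a difference against a spread between samples that edgeR estimated partly from other IDs.

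The engrailed factors, which maintain the midbrain and the front of the hindbrain, were among the 3 highest members per kb. En1 was at 14.9, 16.6 and 10.6 CPM in F1, F2 and F3 and at 18.0, 14.2 and 9.41 CPM in M1, M2 and M3. The sexes overlapped fully, with means of 14.04 ± 3.07 and 13.9 ± 4.31 CPM (SD, n = 3 each). The fitted log2 fold change was -0.004 (SE 0.268, 95% interval -0.583 to 0.574, edgeR adjusted p = 0.997). En2, its paralogue, was at 19.3, 11.8 and 16.4 CPM in the female samples and at 20.6, 17.9 and 15.8 CPM in the male samples. The lowest En2 value was in F2, where only 59 counts were read, and the sexes overlapped (log2 fold change 0.19, SE 0.219, edgeR adjusted p = 0.769). The estimate was 0.018 without F2, 0.076 without M1 and 0.34 without F1. En1 and En2 did not move together over all samples: F2 held the second highest En1 level and the lowest En2 level, and M3 held the lowest En1 level.

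Gbx2, which marks the hindbrain side of the boundary early on and the thalamus later, was at 7.29, 7.39 and 6.84 CPM in the female samples and at 8.90, 13 and 6.51 CPM in the male samples. The female samples lay closer together (SD 0.293 CPM) than counting error alone would spread them (1.06 CPM), which can happen with 3 values. The male mean was set by M2, whose 85 counts gave the highest level of all. In the fit, males were 0.39 higher on the log2 scale (SE 0.291, edgeR adjusted p = 0.613), a value that was 0.11 without M2 and 0.61 without M3.

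The Pax2/5/8 factors, paired box proteins that are switched on one after another around the isthmus, held the only members without overlap between the sexes. Pax2, the first of them in development, was at 12.0, 7.59 and 6.84 CPM in F1, F2 and F3 and at 6.83, 3.06 and 4.60 CPM in M1, M2 and M3. The gap between the sexes was thus between 6.842 CPM in F3 and 6.830 CPM in M1, a distance far below the counting error of either. Mean levels were 8.81 ± 2.78 CPM in females and 4.83 ± 1.90 CPM in males (SD, n = 3 each). The log2 fold change was -0.84 (SE 0.349, 95% interval -1.596 to -0.089), with an edgeR unadjusted p of 0.0312 and an adjusted p of 0.395. F1 and M2 were the samples farthest out: the log2 fold change was -0.56 without F1 (edgeR unadjusted p = 0.175), -0.61 without M2 (0.112), -0.80 without M3 (0.0778) and -1.17 without M1 (0.00377).

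Pax8, which is also a thyroid and kidney factor, was at 8.10, 8.99 and 8.58 CPM in the female samples and at 6.83, 6.57 and 4.90 CPM in the male samples. Every male sample was below every female sample, with means of 8.56 ± 0.444 and 6.10 ± 1.05 CPM (SD, n = 3 each). The difference did not pass the test (log2 fold change -0.49, SE 0.268, 95% interval -1.068 to 0.09, edgeR unadjusted p = 0.091, adjusted p = 0.493), and it was -0.34 without M3. Pax5, better known from B cells, was the member with the fewest counts, 14 to 40 per sample. It was at 2.43, 2.80 and 4.09 CPM in the female samples and at 3.62, 4.43 and 3.60 CPM in the male samples, and the sexes overlapped (log2 fold change 0.30, SE 0.38, edgeR adjusted p = 0.793). It was 0.15 without F1 and 0.58 without F3. The Pax factors therefore did not share a direction. Their summed level was 22.5, 19.4 and 19.5 CPM in F1, F2 and F3 and 17.3, 14.1 and 13.1 CPM in M1, M2 and M3.

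The promoters of Pax2 and Pax8 are shown because these are the members whose levels did not overlap between the sexes. RefSeq (GRCm38.p6) lists 1 start for Pax8 and 3 for Pax2, and the 250 bases before each start are given 5′ to 3′ on the strand of the gene. Pax8 is at chr2:24475600-24475849 (minus strand), and the Pax2 windows are at chr19:44746351-44746600, chr19:44755502-44755751 and chr19:44756656-44756905 (plus strand). The motifs searched on both strands were the TATA box (TATAAA), the CCAAT box (CCAAT), the GC box bound by Sp1 (GGGCGG) and an E-box (CAGCTG). No match overlapped another in these windows. Matches are in capitals.
Pax8: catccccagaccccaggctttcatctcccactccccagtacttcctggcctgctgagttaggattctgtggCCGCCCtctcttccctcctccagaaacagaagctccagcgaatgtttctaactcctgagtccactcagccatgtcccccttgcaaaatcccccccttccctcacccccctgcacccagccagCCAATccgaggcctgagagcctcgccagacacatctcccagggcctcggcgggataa
Pax2 start 1: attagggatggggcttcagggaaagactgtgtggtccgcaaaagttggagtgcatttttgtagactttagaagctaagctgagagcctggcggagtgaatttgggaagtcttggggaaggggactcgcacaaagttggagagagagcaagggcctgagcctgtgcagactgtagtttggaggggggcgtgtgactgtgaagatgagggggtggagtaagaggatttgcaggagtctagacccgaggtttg
Pax2 start 2: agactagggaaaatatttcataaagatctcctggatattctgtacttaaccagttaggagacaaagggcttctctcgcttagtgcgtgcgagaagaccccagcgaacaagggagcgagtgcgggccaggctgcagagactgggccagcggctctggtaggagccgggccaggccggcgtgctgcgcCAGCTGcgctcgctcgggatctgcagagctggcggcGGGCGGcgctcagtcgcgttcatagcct
Pax2 start 3: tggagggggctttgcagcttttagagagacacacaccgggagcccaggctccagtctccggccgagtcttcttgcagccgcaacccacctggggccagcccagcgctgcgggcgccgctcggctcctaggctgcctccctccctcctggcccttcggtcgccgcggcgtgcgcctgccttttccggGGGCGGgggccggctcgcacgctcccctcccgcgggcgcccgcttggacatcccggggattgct
The Pax8 window held 1 CCAAT and 1 GGGCGG. The first Pax2 window held none of the motifs, the second held 1 GGGCGG and 1 CAGCTG, and the third held 1 GGGCGG. None held TATAAA. Among 32851 promoter windows of the same length, 12.4% held TATAAA, 33.8% CCAAT, 32.7% GGGCGG and 13% CAGCTG. The windows differed in GC content, with 60.4% for Pax8 and 52.8%, 60.8% and 72.8% for the Pax2 starts, beside a median of 52.4% over all promoters. Which Pax2 start was used in these brains cannot be read from counts per transcript ID.

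The LIM homeobox factors, which specify roof plate and midbrain dopamine neurons, showed no called difference. Lmx1a was at 12.3, 7.79 and 12.3 CPM in the female samples and at 11.9, 12.5 and 14.3 CPM in the male samples. F2 was low and M3 was high, and the other 4 samples lay within 11.9 to 12.5 CPM (log2 fold change 0.25, SE 0.237, edgeR adjusted p = 0.701). Without F2 the estimate was 0.07. Lmx1b, which is needed for serotonin neurons, was the steadiest member. It was at 7.45, 6.59 and 6.43 CPM in the female samples and at 6.42, 5.66 and 7.01 CPM in the male samples. Its highest value was 1.32 times its lowest, and its SDs of 0.549 and 0.676 CPM were below the counting SDs of 1.03 and 0.862 CPM. The fitted log2 difference of males was -0.10 (SE 0.272, 95% interval -0.684 to 0.492, edgeR adjusted p = 0.916), and it ran from -0.016 without M2 to -0.165 without M3.

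Atoh1, the bHLH factor of the rhombic lip that makes cerebellar granule cells, was at 4.86, 7.79 and 3.57 CPM in the female samples and at 4.97, 3.21 and 2.30 CPM in the male samples. F2 was the highest and M3 the lowest, and the sexes overlapped through F3 and M1. Counts were 21 to 48 per sample, and the 95% interval of the log2 fold change was wide, from -1.492 to 0.291 (edgeR adjusted p = 0.578). The log2 fold change of -0.60 was -0.26 without F2 and -0.96 without M1.

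**Figure D2:**
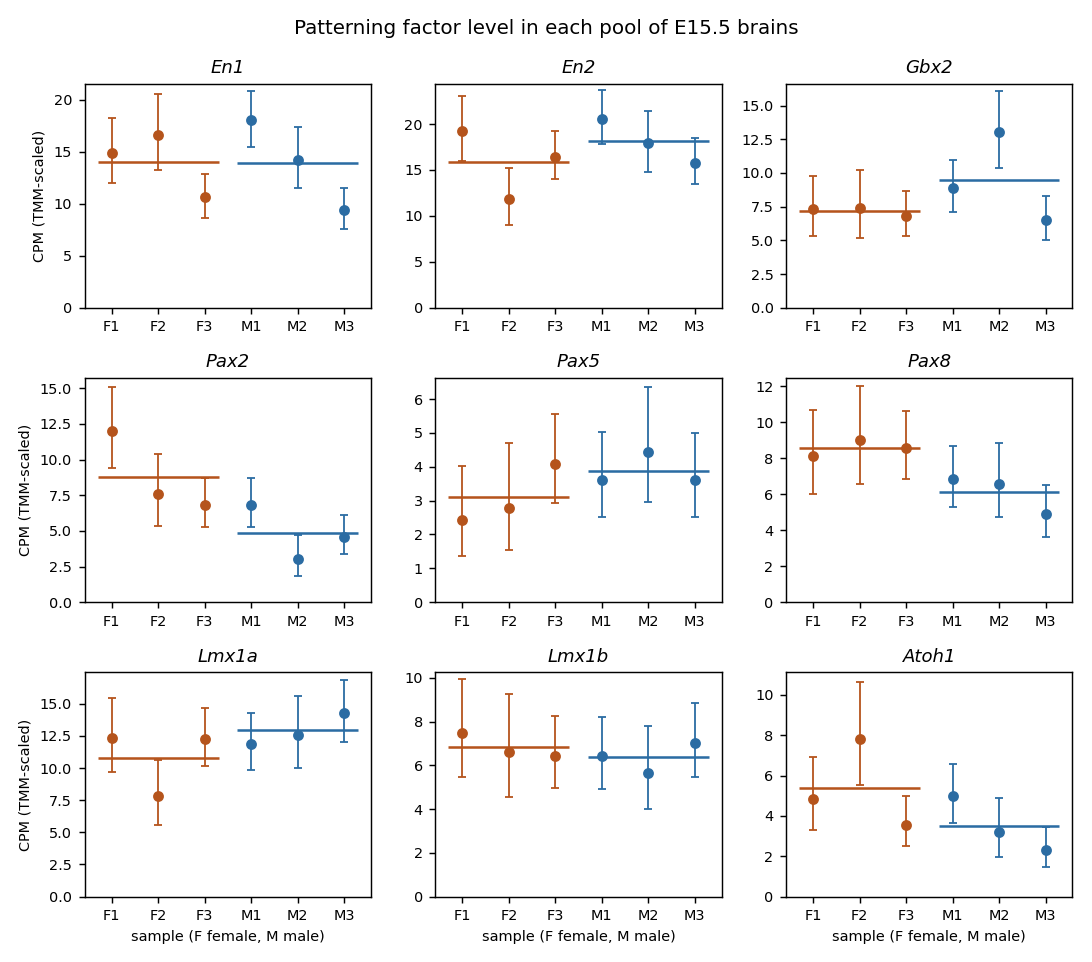
CPM (y axis, from 0) of each of the 9 patterning factors in female (F1 to F3, orange) and male (M1 to M3, blue) samples, with 95% Poisson intervals of the counts as bars and the mean of each sex as a line. Only the Pax2 and Pax8 points do not overlap between the sexes, and for Pax2 the gap is between 6.842 and 6.830 CPM.

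**Figure D3:**
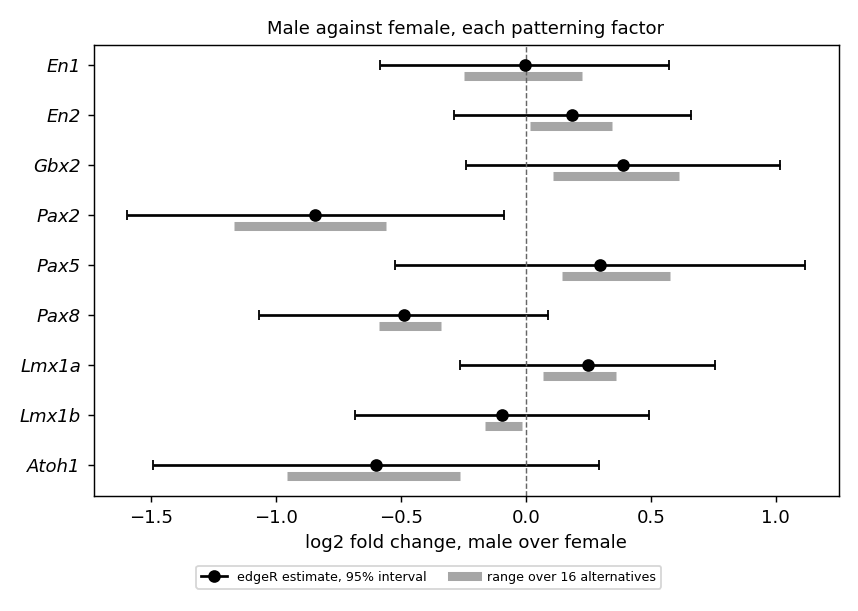
Log2 fold change of male over female for each factor (x axis) with its 95% interval in black, and in grey the lowest to highest estimate over 16 alternatives, which include leaving out each sample. The Pax2 interval, -1.596 to -0.089, is the only one that does not cross 0 before adjustment, and the En1 estimates lie on both sides of 0.

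Because the factors mark regions, their sum per sample was taken as a reading of composition. In bulk samples, fewer cells of a type and less RNA per cell cannot be told apart. The 9 members summed to 88.6, 77.3 and 75.7 CPM in F1, F2 and F3 and to 88.1, 80.6 and 68.5 CPM in M1, M2 and M3. F1 and M1 were the highest and M3 the lowest, with the highest sum 1.29 times the lowest, and the sexes overlapped (80.5 ± 7.06 and 79.0 ± 9.90 CPM, SD, n = 3 each). Relative to the summed CPM of 23 forebrain IDs, none of them a member, the summed members stood at 18.07%, 12.68% and 14.83% in the female samples and at 16.69%, 14.69% and 14.55% in the male samples. F2, which had the highest forebrain sum (609.8 CPM), thus had the lowest ratio, and the ratio of M3 was close to those of F3 and M2. The forebrain sum rests largely on the cortical neuron gene Neurod6 and on Tbr1. Neurod6 was at 135.6 CPM in F1 and 219.5 CPM in F2, the samples with the highest and lowest ratio.

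Other genes of the same regions were taken as 4 lists. The isthmus signalling list holds FGF and WNT ligands, their receptors and feedback regulators such as Dusp6. The midbrain list holds Otx2, Foxa2 and dopamine neuron genes. The cerebellum and rhombic lip list holds the Zic and Lhx genes and Ptf1a. The hindbrain list holds Hox genes, serotonin neuron genes and other neuron genes such as Isl1. How far each list reads its named region alone was not tested. Of the 60 distinct IDs tested in the 4 lists, 0 were called, beside 0.0299% of all tested IDs. At an unadjusted p under 0.05 there were 3 (5%, against 11.5% of all), 1 higher and 2 lower in males, and 5 did not overlap between the sexes (8.33%, against 17.1% of all). Their median log2 fold change was -0.009, beside -0.008 for all tested IDs.

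By list, 12 isthmus IDs, 14 midbrain IDs, 20 cerebellum and rhombic lip IDs and 17 hindbrain IDs were tested, with some genes in more than 1 list. In the isthmus list, Dusp6, the phosphatase that damps FGF signalling, was at 122.5, 120.2 and 145.7 CPM in the female samples and at 164.0, 153.2 and 156.0 CPM in the male samples (log2 fold change 0.28, SE 0.124, edgeR unadjusted p = 0.04, adjusted p = 0.414). The FGF receptor regulator Il17rd was at 107 ± 12.6 and 93.6 ± 2.60 CPM (SD, n = 3 each, edgeR adjusted p = 0.562). Dusp6 and Il17rd had the highest levels of the isthmus list, whose sum averaged 409.0 CPM in females and 420.4 CPM in males. In the midbrain list the leading IDs were Slc18a2, the vesicular monoamine transporter, with 50.4 ± 4.89 and 44.2 ± 6.15 CPM, and the LIM factor Lhx1 with 35.9 ± 5.89 and 32.7 ± 4.07 CPM. The floor plate gene Foxa1 was at 19.1 ± 3.14 and 13.5 ± 4.67 CPM (edgeR adjusted p = 0.488). The dopamine transporter Slc6a3 was at 1.43 to 2.60 CPM in females and 3.11 to 3.36 CPM in males, few counts with no overlap (edgeR adjusted p = 0.547).

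In the cerebellum and rhombic lip list the netrin receptor Dcc was at 389.7, 391.3 and 357.5 CPM in the female samples and at 281.3, 305.6 and 317.0 CPM in the male samples (log2 fold change -0.33, SE 0.114, edgeR unadjusted p = 0.012, adjusted p = 0.344). The Purkinje cell factor Rora, by the ID listed, was at 7.28 ± 2.26 and 3.47 ± 2.06 CPM (edgeR unadjusted p = 0.0326, adjusted p = 0.396), whereas the granule lineage gene Zic1 was at 192 ± 14.8 and 187 ± 14.5 CPM. Dcc, an axon guidance receptor used far beyond the cerebellum, made up most of the difference in the sum of this list, which was 906.7 to 924.6 CPM in females and 798.8 to 871.0 CPM in males. In the hindbrain list the motor neuron factor Isl1 was at 57.4 ± 7.96 and 54.0 ± 9.63 CPM and Hoxa2 at 24.3 ± 3.73 and 18.6 ± 3.55 CPM (edgeR adjusted p = 0.475). Isl1 had the highest level of this list, whose sum averaged 169.1 CPM in females and 160.9 CPM in males. The serotonin neuron factor Fev was above 1 CPM in F2 alone (2.40 CPM), and its level in M2 was 0.

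M3, the lowest sample for the summed members, was also the lowest for the midbrain list (180.3 CPM, others 192.6 to 210.3), the cerebellum and rhombic lip list, the hindbrain list (137.8 CPM, others 157.9 to 184.4) and the forebrain list (470.6 CPM, others 490.5 to 609.8). It was not the lowest for isthmus signalling, where F2 was (370.7 CPM, M3 411.5 CPM). M3 had the highest head mesenchyme, dermis and skull sum (19230 CPM, others 11080 to 16670). The next mesenchyme sums were close together in F1 (16670 CPM), M1 (16570 CPM) and F3 (16530 CPM), of which F1 and M1 had the highest member sums and F3 the second lowest. M2, with the lowest mesenchyme sum, had a middle one. The median log2 deviation of the members from their own mean was -0.303 in M3 and -0.023 to 0.167 in the other samples. The part of the skeletal and skin RNA in these levels was not tested.

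**Figure D4:**
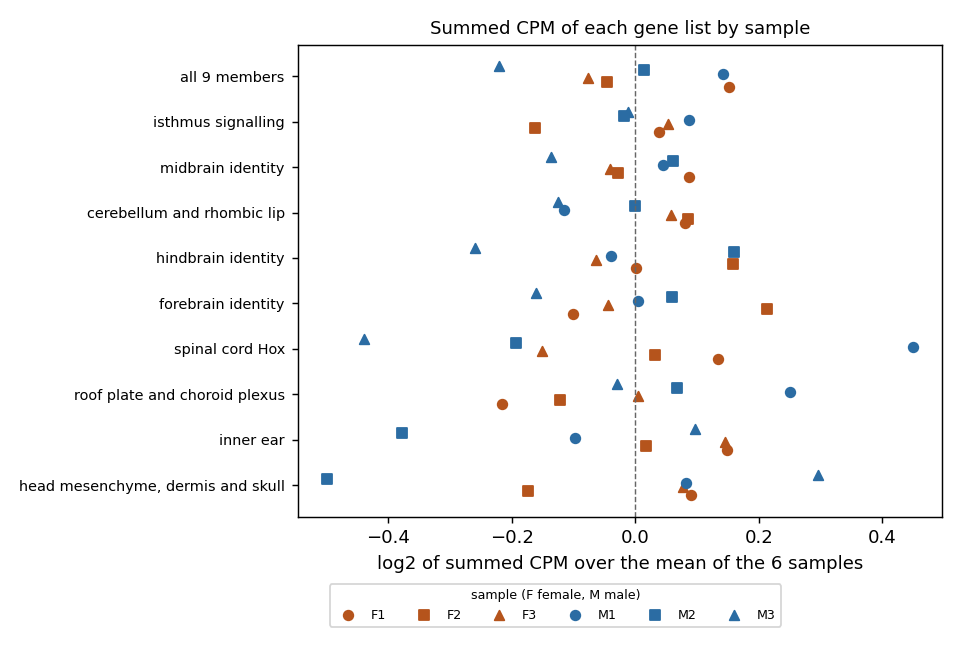
Log2 of the summed CPM of each gene list over the mean of the 6 samples (x axis), for the 9 members and the comparison lists (rows), with females in orange, males in blue and a marker shape per replicate. M3 (blue triangle) is lowest for the members, at 68.5 CPM, and for the midbrain, cerebellum, hindbrain, forebrain and spinal cord lists, and highest for head mesenchyme, at 19230 CPM.

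Tissues outside the midbrain and hindbrain in which the members are also used were read from lists of their markers. None of the IDs in these lists was called. The median log2 fold change of the tested IDs was -0.358 for thyroid and kidney, -0.184 for B cells, -0.117 for spinal cord Hox, -0.108 for roof plate and choroid plexus, -0.01 for head mesenchyme, dermis and skull, and -0.008 for inner ear, beside -0.008 for all tested IDs. Each of these list medians was negative, as was that of all tested IDs. For the inner ear, where Pax2, Pax8, Lmx1a and Atoh1 are used, 8 of 13 IDs were tested and none of the 13 was at 0 in all samples. Their sum was 29.2 to 31.9 CPM in females and 22.2 to 30.8 CPM in males. The most abundant were Otog (4.59 to 12.4 CPM) and Otogl (4.55 to 10.1 CPM), which encode related proteins of the membranes over the sensory cells. The anion transporter Slc26a4 (0.613 to 1.80 CPM in females, 0 to 0.60 CPM in males) was near the detection limit. The part of inner ear RNA in the Pax2 and Pax8 levels was not tested. For thyroid and kidney, 8 of 11 IDs were tested, and the sum was 47.2 to 67.1 CPM in females and 30.7 to 57.1 CPM in males. Most of it came from Six2 (13.8 to 38.7 CPM, log2 fold change -0.375) and Tg (9.79 to 26.8 CPM, log2 fold change 0.21), which went opposite ways. The part of thyroid or kidney RNA in the Pax2 and Pax8 levels was not tested.

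For B cells, where Pax5 is used, 2 of 7 IDs (Blnk and Rag1) had enough counts to be tested and the sum was 6.54 to 12.5 CPM. None of the 7 was at 0 in all samples. The part of B cells in the Pax5 levels was not tested. For roof plate and choroid plexus, where Lmx1a is used, 13 of 17 IDs were tested. The choroid plexus secretory gene Ttr was at 474 ± 46.8 and 619 ± 84.9 CPM (SD, n = 3 each, log2 fold change 0.38, SE 0.134, edgeR unadjusted p = 0.0136, adjusted p = 0.351), whereas the Wnt potentiator Rspo1 was at 17.5 ± 1.33 and 12.6 ± 3.83 CPM (log2 fold change -0.48, SE 0.234, edgeR adjusted p = 0.451). The sum, most of it Ttr, was 784 to 913 CPM in females and 892 to 1084 CPM in males. M1 had the highest sum and M3 the highest Lmx1a level, and the part of this tissue in the Lmx1a levels was not tested. Spinal cord Hox genes, which mark tissue behind the brain, had 17 IDs with a sum of 83.5 to 102 CPM in females and 68.5 to 127 CPM in males. The highest was M1, which also had the highest En1 and En2 levels, and the lowest was M3. The part of spinal cord tissue in the levels of the members was not tested.

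Across the 6 samples the members did not vary as 1 block. Of the 36 pairs of members, 19 had a positive Pearson r of log2 CPM. The highest was between En1 and Atoh1 (r = 0.801) and the lowest between Lmx1a and Atoh1 (r = -0.891) and between Pax2 and Pax5 (r = -0.832). These r values are descriptions over 6 samples. Both members of a pair were read from the same libraries, which differed in depth, and low counts add noise to each r. For the member of each group with the highest mean count (not corrected for length, by which En1 is above En2), the IDs with the most similar pattern among 8351 candidates with a mean of at least 50 counts were Coa7 (r = 0.985) and 1110032F04Rik (0.983) for En2, Chrnb2 (0.986) and Ss18l1 (0.985) for Gbx2, Eloa (0.999) and Taf4b (0.980) for Pax8, Nhlrc3 (0.992) and Ears2 (0.991) for Lmx1a, and Kpna3 (0.995) and Slitrk4 (0.994) for Atoh1. With so many candidates and 6 samples, high values are common: 36 to 140 candidates had r above 0.9 for each of these members, and none of the 10 named IDs is in the lists of midbrain or hindbrain genes.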

How the data were processed

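Whole-brain RNA of 3 female and 3 male pools was sequenced, with sex and replicate number taken from the labels. Per the submitters' processing notes, reads were handled with Trimmomatic 0.32, TopHat2 2.1.1, Cufflinks 2.2.1 and featureCounts 1.5.1 on mm9. The values deposited by the authors are raw counts, with 1 table for each sample and 1 row for each RefSeq transcript ID. Read assignment between transcripts of a gene is not described in the sources used here, so counts per ID are uncertain for genes with several transcripts. The study itself used DESeq2 with RUVr.

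Symbols came from a RefSeq gene table (GRCm38.p6), which named 23359 of 23485 IDs. Positions, lengths and GC came from GENCODE on NCBIM37 (mm9). After removal of IDs that reached 10 counts in none of the samples, 13374 were left. Males were compared with females by edgeR's quasi-likelihood F test, TMM factors and Benjamini-Hochberg adjustment, with a call at an adjusted p under 0.05. RUVr was kept for the alternatives, since its factors come from the residuals that the test uses. Standard errors and 95% intervals were derived from the F statistic. CPM used TMM-scaled totals (factors 0.940 to 1.03), and log2 CPM a prior count of 2. Totals of 4908565 to 10294443 counts per sample set the precision. The labels give no batch, so no comparison within batches was made.

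Named genes were all 9 members. From each other list they were the 2 IDs with the highest mean CPM and the 2 with the smallest p. For the member with the highest mean count in each group they were also the 2 IDs with the highest correlation. The members and lists were chosen with earlier results of these data known. Genes of the lists without an ID here, such as Pax6 and Fgf17, were not analysed here, and some listed genes are not reported here and were left out of the list sums and counts. Alternatives were DESeq2, other scaling factors and filters, RUVr factors, a replicate block, length and GC trends, counts summed per gene, a looser threshold and leaving out each sample. Software was R 4.3.3, edgeR 4.0.16, limma 3.58.1, DESeq2 1.42.0, Python 3.11.15, pandas 2.3.3 and matplotlib 3.10.9.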

Additional observations from a re-analysis of the deposited data

How the results depend on the processing

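No member and no ID of the midbrain and hindbrain lists was called in any of the 16 alternatives or at an adjusted p under 0.1. The lowest adjusted p of any member was 0.184 (Pax2, edgeR with 1 RUVr factor). Over all IDs, 4 were called in the main comparison, and 2 with length and GC trends removed to 276 without a low-count filter. The number of members at an unadjusted p under 0.05 was 1 (Pax2) and became 2 with length and GC trends removed (Pax2 and Pax8). It ranged from 0 to 2 when 1 sample was left out, being 0 without F1, M2 or M3 and 2 (Pax2 and Atoh1) without M1, and the cause was not tested. Pax2 stayed negative throughout (log2 fold change -1.17 to -0.56), and so did Pax8 (-0.59 to -0.34). En1, at -0.004, turned positive without a low-count filter (0.023) and with IDs summed per gene (0.006), and it ran from -0.248 to 0.224 when 1 sample was left out (0.045 without F1, 0.124 without F2, 0.224 without M3). The other 8 members kept their direction. The median log2 fold change of the members ranged from -0.132 to 0.174. Without the filter, the median of all IDs shifted to -0.113. Same-numbered female and male samples did not deviate together (r = -0.355, -0.059 and -0.292 over 9971 IDs), which gives no ground for pairing by number. Differently numbered pairs ran from -0.125 (F3 with M2) to 0.299 (F3 with M1). Deviations were taken from the mean of each sex, which ties these values to each other. They cannot tell whether samples shared a batch. With the replicate block, 0 members were called and 1 was at an unadjusted p under 0.05 (Pax2, log2 fold change -0.88, edgeR unadjusted p = 0.0248, adjusted p = 0.549). The intervals limit what can be seen: the narrowest 95% interval of a log2 fold change was -0.288 to 0.659 (En2) and the widest -1.492 to 0.291 (Atoh1). Counts were 14 to 199 per member, and how much of the width came from low counts was not tested.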
